A study of Mus musculus with 6 samples.

Results

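The transcripts described here are those of 9 leukocyte adhesion receptors and ligands: E-selectin (Sele), P-selectin (Selp), the P-selectin ligand PSGL-1 (Selplg), the immunoglobulin-type receptors Icam1, Icam2, Vcam1 and Pecam1, the atypical chemokine receptor Ackr1 and the transmigration protein Cd99l2. They were found by gene symbol in the count table, where each of the 9 had a single row among 22183 genes. The libraries came from cells labelled as endothelial cells (ECs) of the peritoneum of wild-type mice, which the study's methods describe as young adult C57BL/6J males. One group of 3 mice (PD mice) had PD fluid, a glucose-based peritoneal dialysis solution, injected intraperitoneally over 6 weeks, and the other 3 (saline mice) had saline over the same 6 weeks. One library was sequenced per mouse, and no other strain, allele or agent was part of the groups. The labels state magnetic sorting for CD31, whereas the study's supplementary methods describe flow sorting of digested mesentery for cells with CD31 and without the leukocyte protein CD45. CD31 is the product of Pecam1, so the cells were selected on one of the 9 receptors.

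Leukocytes leave the blood in steps that use these proteins in turn. E-selectin and P-selectin on activated endothelium catch leukocytes through glycosylated ligands such as PSGL-1 and let them roll, ICAM-1, ICAM-2 and VCAM-1 bind leukocyte integrins and hold them, and PECAM-1 and CD99L2 at cell borders take part in the passage between ECs. P-selectin is stored in Weibel-Palade bodies of ECs and in platelet granules, E-selectin and VCAM-1 are made after stimulation by cytokines such as TNF and IL-1 through NF-κB, and ACKR1 moves chemokines across venular endothelium. PSGL-1 is chiefly a leukocyte protein, ICAM-1, ICAM-2 and PECAM-1 are also carried by leukocytes, and VCAM-1 is also made by some macrophages and stromal cells.

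Between 21973426 and 26374292 reads per mouse were assigned to genes, and 14005 genes had enough reads to be tested. The label "endothelial" was checked against marker lists. All 14 endothelial markers, Cdh5 (VE-cadherin) first among them, were present, with summed levels of 779 to 811 counts per 1000000 reads (CPM) in saline mice and 1530 to 1631 CPM in PD mice. All 8 leukocyte markers were present too, at 12448 to 13171 summed CPM in the saline group and 9300 to 9681 CPM in the PD group. Per transcript length, Ptprc, which encodes CD45, was at 624 ± 30.2 FPKM (fragments per kilobase of transcript and library size, SD, n = 3) in saline mice and 392 ± 7.73 FPKM in PD mice, and Cdh5 at 4.72 ± 0.71 and 8.37 ± 0.36 FPKM. The libraries thus hold much leukocyte RNA beside that of ECs. In both groups the leukocyte markers had higher summed levels than the endothelial markers, and Ptprc was far above Cdh5. In such bulk libraries, fewer cells of a type and less RNA per cell cannot be told apart.

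Sele and Selp lie next to each other on chromosome 1 in the GENCODE M21 annotation of mouse build GRCm38, with 57587 bases between the end of Sele (chr1:164048234-164057677, + strand) and the start of Selp (chr1:164115264-164150026, + strand). Ackr1 is on the same chromosome (chr1:173331886-173333750, - strand). The others are Selplg (chr5:113818536-113832644, - strand), Icam1 (chr9:21015985-21028817, + strand), Icam2 (chr11:106377656-106388075, - strand), Pecam1 (chr11:106654217-106750628, - strand), Vcam1 (chr3:116109949-116129688, - strand) and Cd99l2 (chrX:71420060-71492849, - strand). All 9 are protein-coding genes. In that annotation 25.7% of the exonic bases of Ackr1 are shared with Cadm3 on the same strand, so reads there could be counted for either gene. Cadm3 itself had 16 to 65 reads per library and Ackr1 650 to 1526. Antisense RNAs overlap 9.93% and 4.21% of the exonic bases of Selp and 11.7% of those of Icam1, and whether strand was used in counting is not given in the sources used here.

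Promoter windows of RefSeq (GRCm38.p6) were matched by symbol for 5 of the 9 genes: Sele, Selp, Icam1, Ackr1 and Cd99l2. Those of Selplg, Icam2, Vcam1 and Pecam1 were not matched. The 250 bases before the start site are shown for the selectins and Icam1, the matched genes that more than doubled and whose windows end before their own GENCODE gene begins. They are chr1:164047984-164048233 for Sele, chr1:164115014-164115263 for Selp and chr9:21015690-21015939 for Icam1, each on the + strand. Capitals mark matches on either strand to GGNNNTTCC, a shortened form of the sequence that NF-κB binds.
Sele: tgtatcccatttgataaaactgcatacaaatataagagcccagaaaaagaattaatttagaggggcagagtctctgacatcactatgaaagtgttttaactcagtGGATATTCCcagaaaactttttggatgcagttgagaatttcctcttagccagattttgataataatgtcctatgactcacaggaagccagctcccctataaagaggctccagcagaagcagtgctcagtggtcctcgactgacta
Selp: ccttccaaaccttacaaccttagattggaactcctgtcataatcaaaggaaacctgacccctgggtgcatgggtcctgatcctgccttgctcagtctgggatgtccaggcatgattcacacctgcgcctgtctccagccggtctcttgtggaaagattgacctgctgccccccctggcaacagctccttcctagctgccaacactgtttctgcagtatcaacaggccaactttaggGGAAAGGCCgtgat
Icam1: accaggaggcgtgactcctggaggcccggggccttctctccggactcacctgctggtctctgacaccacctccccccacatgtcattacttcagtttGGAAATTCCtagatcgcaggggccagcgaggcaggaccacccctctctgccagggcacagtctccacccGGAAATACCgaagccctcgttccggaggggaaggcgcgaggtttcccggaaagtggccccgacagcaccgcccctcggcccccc
The Sele match GGATATTCC starts 145 bases before the start site. Closer to the start of Sele, and also searched on either strand, are the AP-1 letters TGANTCA at 73 bases, the ETS letters AGGAAG at 65 bases and, at 49 bases, TATAAA, the letters of a TATA box. Icam1 holds GGAAATTCC and GGAAATACC at 153 and 84 bases before the start, of which the latter, in the letters shown, matches on the other strand. Selp has GGAAAGGCC 14 bases before the start, which in the letters shown also matches on the other strand. It has an AP-1 match at 139 bases and an ETS match on the other strand at 64 bases. Among all 32851 windows of this length, 15.7% hold GGNNNTTCC, 12.4% TATAAA, 6.75% TGANTCA and 29.5% AGGAAG, so a match by itself is common. The full NF-κB consensus, found in 3.9% of all windows and overlapping the shortened letters, was in none of the 5 windows, and the Cd99l2 window held none of the letters searched.

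PD mice had more Sele, Selp, Icam1, Vcam1, Ackr1 and Cd99l2 transcripts than saline mice, while Selplg, Pecam1 and Icam2 did not pass the test. Thus 6 of the 9 were higher and 0 lower at an adjusted p below 0.05, where 31.1% of all 14005 genes tested were called higher and 27.8% lower, 58.9% in all. The median log2 fold change was 1.07 over the 9 and 0.02 over all genes tested. Between mice the values were tight, and in 8 of the 9 every PD mouse was above every saline mouse, an arrangement seen in 34.0% of all genes tested. E-selectin had the largest change of the 9, and the order of the changes ran from the selectins over Vcam1, Ackr1 and Icam1 to Cd99l2. Levels are given as CPM after TMM scaling, which sets the libraries level over most genes.

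**Figure D1:**
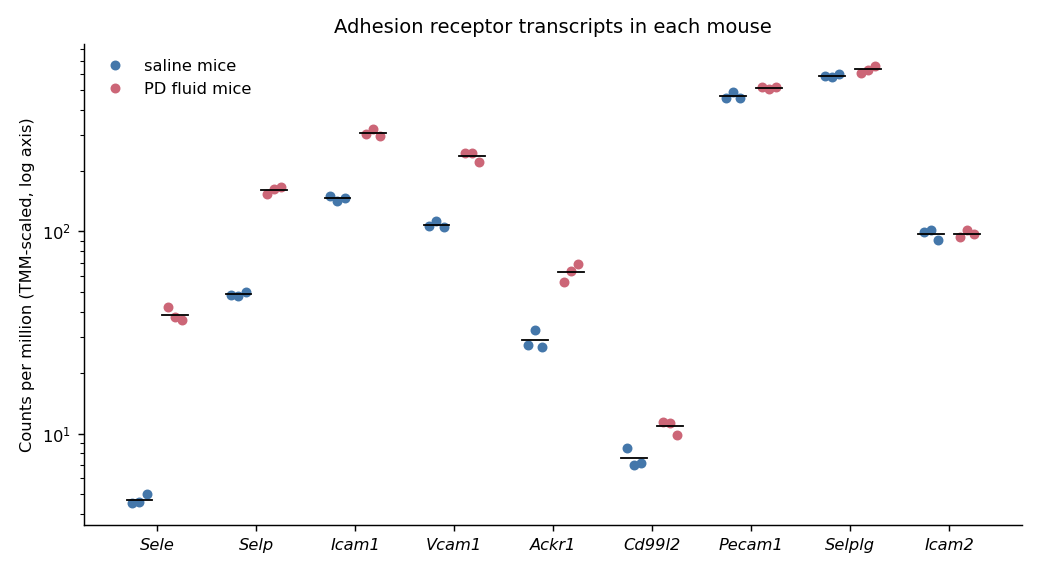
Transcript levels of the 9 adhesion receptors in each mouse, in TMM-scaled CPM on a log axis (points, 3 mice per group) with the group mean (line). The PD mice lie above the saline mice for every gene but Icam2, and the gap is widest for Sele, at 36.3 to 42.5 CPM against 4.53 to 5.01 CPM.

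Sele is the selectin that endothelium makes on activation. It stood at 4.53, 4.57 and 5.01 CPM in the 3 saline mice and at 42.5, 37.6 and 36.3 CPM in the 3 PD mice. These values rest on 99 to 121 reads per saline mouse and 802 to 1154 reads per PD mouse. The lowest PD mouse was far above the highest saline mouse, and the groups did not overlap. The log2 fold change was 3.04 (SE 0.11, 95% confidence interval 2.79 to 3.30, edgeR quasi-likelihood test, Benjamini-Hochberg adjusted p = 4.24e-09), which ranked 241st from the top of all genes tested.

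Selp, the other endothelial selectin, rose by a smaller factor. It was at 48.4, 47.9 and 50.4 CPM in saline mice and at 153.5, 161.7 and 165.6 CPM in PD mice. Within a group the 3 mice were close to each other, and no PD mouse came near the saline range. The log2 fold change was 1.71 (SE 0.07, interval 1.57 to 1.86, edgeR quasi-likelihood test, Benjamini-Hochberg adjusted p = 5.31e-09). Since P-selectin is also a platelet protein, the platelet markers stand beside this result. Of 10 platelet genes 6 had enough reads to be tested, and Pf4 was the only one called (27.6 CPM in saline and 89.7 CPM in PD mice), while Gp9 had 0.197 and 0.291 CPM. Summed, the 10 ranged from 38.3 to 41.1 CPM in saline mice and from 100.1 to 106.6 CPM in PD mice, mostly Pf4 in both groups. The median log2 fold change of the 6 tested was 0.23, and the part of platelets in the Selp result was not tested.

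Selplg encodes the ligand that P-selectin meets on leukocytes. Its levels of 585, 579 and 603 CPM in saline mice and 608, 632 and 660 CPM in PD mice were close to each other. All 3 PD mice were above the saline mice, but the step between the nearest mice was smaller than the spread within either group. The log2 fold change of 0.10 (SE 0.06, interval -0.02 to 0.23, edgeR quasi-likelihood test, Benjamini-Hochberg adjusted p = 0.144) did not pass the test. Leukocyte markers moved the other way, with 7 of 8 called lower in PD mice, while all 8 macrophage markers were higher, at 2282 to 2418 summed CPM in saline mice and 9266 to 10016 CPM in PD mice. All 8 B cell markers were lower, at 6280 to 6548 and 2967 to 3012 summed CPM, and the part of these cells in the Selplg level was not tested.

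Among the integrin ligands, Icam1 and Vcam1 rose by similar amounts and Icam2 did not. Icam1, which binds the leukocyte β2 integrins, was at 149, 142 and 147 CPM in saline mice and at 302, 320 and 296 CPM in PD mice. Every PD mouse had about the double of any saline mouse. Its log2 fold change was 1.07 (SE 0.06, interval 0.94 to 1.20, edgeR quasi-likelihood test, Benjamini-Hochberg adjusted p = 1.04e-07). Vcam1, the ligand of α4 integrins, was at 107, 112 and 105 CPM in saline mice and at 244, 244 and 221 CPM in PD mice. Here too the groups lay far apart, with a log2 fold change of 1.13 (SE 0.07, interval 0.98 to 1.27, edgeR quasi-likelihood test, Benjamini-Hochberg adjusted p = 1.39e-07).

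Icam2, a β2-integrin ligand that resting endothelium carries, was level between the groups. The saline mice had 99.3, 102.2 and 91.2 CPM and the PD mice 94.4, 101.6 and 97.1 CPM. The PD values lay inside the saline range, the one case of overlap among the 9. The log2 fold change was 0.002 (SE 0.07, edgeR quasi-likelihood test, Benjamini-Hochberg adjusted p = 0.985), and its 95% confidence interval ran from -0.15 to 0.16.

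Pecam1, the gene of the sorted protein, differed little. Its levels were 458, 491 and 458 CPM in saline mice and 519, 504 and 517 CPM in PD mice. The 3 PD mice were above the 3 saline mice, but the step between the nearest mice was smaller than the spread of the saline mice. The log2 fold change of 0.13 (SE 0.06, interval 0.00412 to 0.26, edgeR quasi-likelihood test, Benjamini-Hochberg adjusted p = 0.0704) did not pass the test over all genes. Without saline mouse 2, the highest saline value, it was 0.17 and passed (adjusted p = 0.0279, same test).

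Ackr1 and Cd99l2, which act at venules and at cell borders, rose as well. Ackr1 was at 27.5, 32.4 and 26.9 CPM in saline mice and at 56.1, 63.5 and 68.8 CPM in PD mice. The groups were well separated, with a log2 fold change of 1.12 (SE 0.10, interval 0.89 to 1.35, edgeR quasi-likelihood test, Benjamini-Hochberg adjusted p = 5.64e-06). Cd99l2 was at 8.47, 6.96 and 7.16 CPM in saline mice and at 11.4, 11.3 and 9.79 CPM in PD mice, on 151 to 311 reads per library. It had the smallest change that passed the test, with groups that lay close but did not overlap and a log2 fold change of 0.52 (SE 0.14, interval 0.21 to 0.83, edgeR quasi-likelihood test, Benjamini-Hochberg adjusted p = 0.0083). In a stricter call that also asked for at least a 2-fold change, Cd99l2 dropped out and 5 of the 9 remained higher, with 0 lower, against 15.4% of all genes tested higher and 1.8% lower by that call.

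Markers of ECs themselves were higher in PD mice, all 14 of 14, and so were all 4 venous, 7 arterial, 6 capillary and 7 lymphatic markers. The venous list, whose vessels are the known site of Selp, Sele and Ackr1, had 172 to 199 summed CPM in saline mice and 529 to 547 CPM in PD mice, with Nr2f2 at a log2 fold change of 0.56 and Vwf, which is also a stored protein, at 1.48. The lymphatic markers had 227 to 248 and 1041 to 1185 summed CPM, and Prox1 among them had a log2 fold change of 1.70. The receptors were therefore also fitted with the libraries scaled to the 14 endothelial markers, so that a value of 0 means a change equal to theirs. On this scale the median of all genes tested was -1.04, with 7.36% called higher and 74.4% lower.

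Relative to the endothelial markers, only the selectins among the 9 remained higher, Sele with a log2 fold change of 1.99 (SE 0.14, edgeR quasi-likelihood test, Benjamini-Hochberg adjusted p = 1.28e-10) and Selp with 0.66 (SE 0.10, adjusted p = 6.32e-06). Icam1, Vcam1 and Ackr1 were not separated from the markers, at 0.01 (SE 0.10), 0.07 (SE 0.10) and 0.06 (SE 0.13), with adjusted p of 0.922, 0.546 and 0.672 in the same edgeR quasi-likelihood test with Benjamini-Hochberg adjustment. Their call thus depends on the scaling. Cd99l2 turned from higher to lower, at -0.53 (SE 0.16). Pecam1, Selplg and Icam2 were lower as well, at -0.93, -0.95 and -1.06 with SEs of 0.10 to 0.11, close to the median of all genes on that scale. The 14 markers themselves spread from -0.53 to 0.60 on this scale, with 3 called higher and 2 lower. Tie1 (0.60), named after its value was seen like Tek, was about level with Selp, and Tek (-0.53) with Cd99l2, while Sele lay above all 14. So 2 of the 9 were higher and 4 lower on the endothelial scale, where 6 were higher and 0 lower over all genes.

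**Figure D2:**
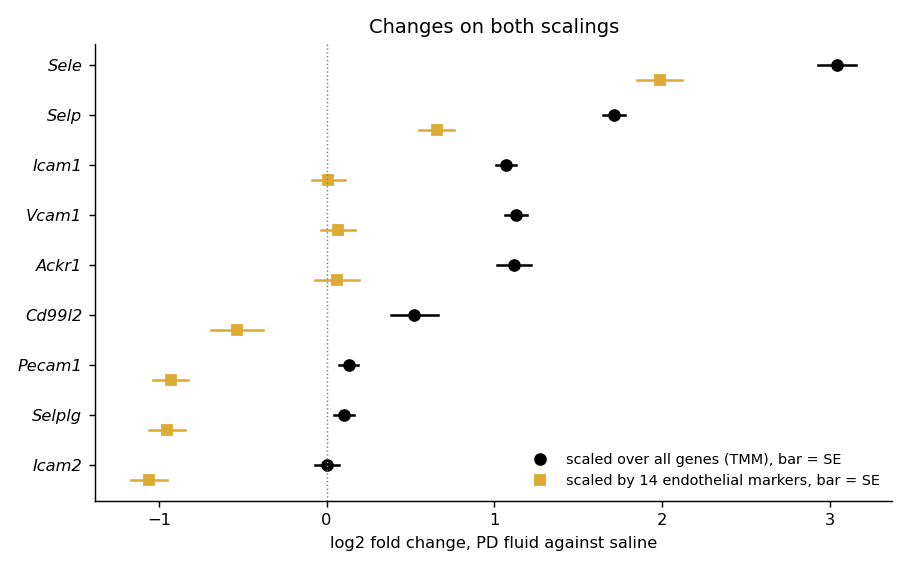
Log2 fold change of PD against saline mice for the 9 receptors, with libraries scaled over all genes by TMM (black circles) or to 14 endothelial markers (yellow squares), and bars of 1 standard error (3 mice per group). Sele and Selp stay above 0 on both scalings, at 3.04 and 1.71 and at 1.99 and 0.66, while Icam1, Vcam1 and Ackr1 fall to between 0.01 and 0.07.

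The same was read within each library as the log2 ratio of a receptor's CPM + 1 to that of a single gene, Cdh5, Pecam1 or Ptprc. Cdh5 was at 18.4, 16.5 and 21.9 CPM in saline mice and at 34.0, 32.2 and 33.8 CPM in PD mice, and Ptprc at 2295, 2520 and 2304 CPM and at 1405, 1482 and 1531 CPM. With 3 mice against 3, the two-sided exact permutation test cannot go below p = 0.1, so separation of the groups is given as a description. Relative to Cdh5, the ratio of Sele was -1.81, -1.65 and -1.93 in saline mice and 0.31, 0.22 and 0.10 in PD mice, with no overlap (exact permutation p = 0.1, adjusted 0.15 over the 9).

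Selp moved from 1.35, 1.48 and 1.17 to 2.14, 2.29 and 2.26 relative to Cdh5, and Icam1 from 2.95, 3.03 and 2.69 to 3.11, 3.27 and 3.09. These 3 genes were higher in every PD mouse, the difference being 2.01 for Sele, 0.90 for Selp and 0.27 for Icam1. Pecam1, Selplg and Icam2 were lower in every PD mouse, by -0.66, -0.69 and -0.79. The ratios of Vcam1 (0.33), Ackr1 (0.30) and Cd99l2 (-0.32) overlapped between the groups. Over all genes tested, 7.58% were higher relative to Cdh5 without overlap and 71.7% lower, so the 3 lower receptors moved as most genes did. Saline mouse 2, which had the least Cdh5, decided this for Vcam1 and Ackr1: without it 5 receptors instead of 3 were higher than every remaining saline mouse.

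Relative to Pecam1, 6 of the other 8 receptors were higher in every PD mouse, from 0.34 for Cd99l2 to 2.67 for Sele, and Selplg (-0.03) and Icam2 (-0.13) overlapped. On the ratio to Pecam1, 26.3% of all genes tested were higher without overlap and 40.5% lower. Leaving out saline mouse 2, saline mouse 3 or PD mouse 2 gave 1 receptor lower relative to Pecam1 instead of 0. Relative to Ptprc, which was lower in PD mice, all 9 were higher without overlap, from 0.69 for Icam2 to 3.49 for Sele, but so were 87.7% of all genes tested (1.39% were lower), so this count is no result about the receptors. The side on which Pecam1, Selplg and Icam2 fell therefore changed with the reference. Sele, Selp and Icam1 were higher against all 3 reference genes. Only Sele (1.99) and Selp (0.66) among them were also higher with libraries scaled to the endothelial markers as a set. Icam1 was at 0.01 (SE 0.10) on that scale. Cdh5 itself was there at -0.24 (SE 0.12), beside the difference of 0.27 for Icam1 relative to Cdh5.

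**Figure D3:**
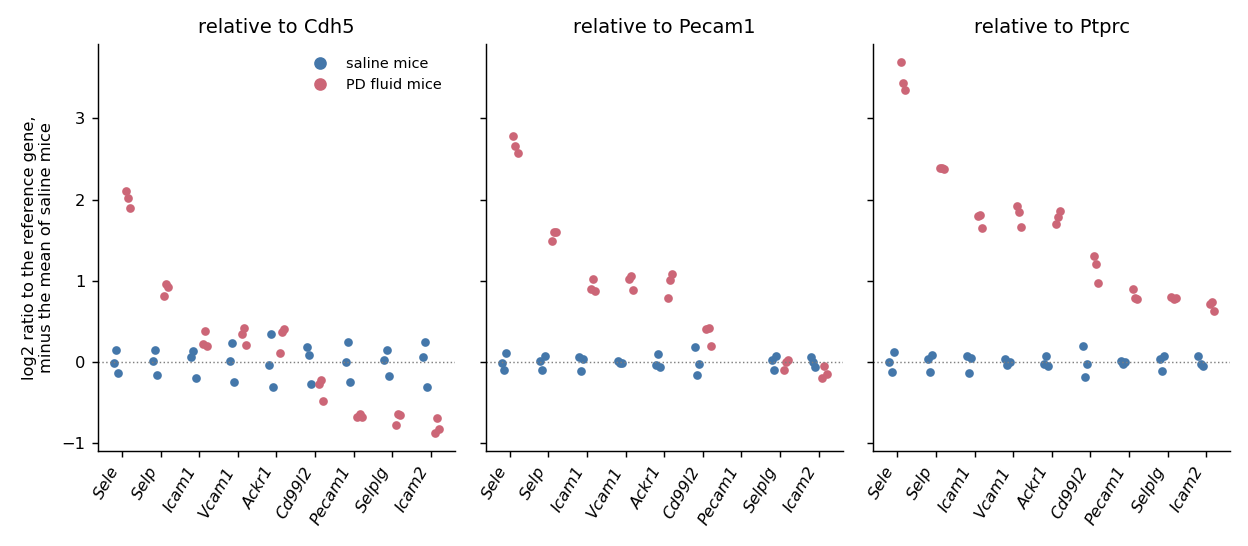
Log2 ratio of each receptor to Cdh5, Pecam1 or Ptprc in the same library, shown as the distance from the mean of the saline mice (points are single mice, 3 per group; Pecam1 has no points in its own panel). Sele lies 2.01, 2.67 and 3.49 above the saline mean on average, while Pecam1, Selplg and Icam2 lie below it relative to Cdh5 and above it relative to Ptprc.

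To set the receptors against each other, the authors' FPKM values were used, which take out transcript length. Selplg had the highest level per length in both groups, at 351 ± 9.45 FPKM (SD, n = 3) in saline mice and 371 ± 9.97 FPKM in PD mice. Pecam1 followed at 145 ± 4.44 and 158 ± 5.11 FPKM. In saline mice Icam2 came next at 87.8 ± 5.65 FPKM, then Icam1 at 57.4 ± 1.91 FPKM, but in PD mice Icam1 at 121 ± 6.40 FPKM stood above Icam2 at 88.0 ± 4.37 FPKM.

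Vcam1, Ackr1 and Selp kept their places in the order of FPKM levels, at ranks 5 to 7. Vcam1 went from 32.9 ± 0.66 to 71.5 ± 5.86 FPKM, Ackr1 from 25.0 ± 2.39 to 54.6 ± 4.09 FPKM and Selp from 14.2 ± 0.49 to 46.7 ± 0.62 FPKM. At the lower end Sele and Cd99l2 changed places: Sele was last in saline mice at 1.61 ± 0.10 FPKM, under Cd99l2 at 2.16 ± 0.25 FPKM, and was above it in PD mice at 13.4 ± 1.47 against 3.15 ± 0.32 FPKM. No neighbours in either order overlapped over the 3 mice. The highest level was 218 times the lowest in saline mice and 118 times in PD mice.

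**Figure D4:**
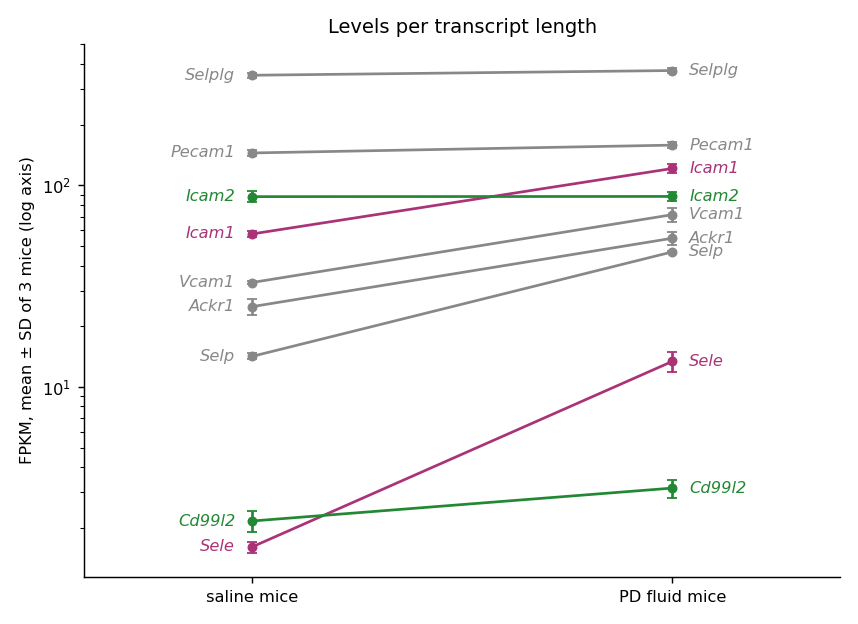
FPKM levels of the 9 receptors in saline and PD mice (mean ± SD of 3 mice, log axis), with the genes that changed places in colour. Icam1 rises past Icam2, from 57.4 to 121 FPKM against 87.8 and 88.0 FPKM, and Sele rises past Cd99l2, from 1.61 to 13.4 FPKM against 2.16 and 3.15 FPKM.

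The make-up of the receptor reads differed accordingly. The 9 genes together took 1499 ± 16.3 CPM (SD, n = 3) in the saline group and 2059 ± 25.1 CPM in the PD group. Without Selplg, Pecam1 and Icam2, which did not pass the test, the sum of the other 6 was 344 ± 2.58 and 815 ± 20.6 CPM. These 6 are the ones called higher, so the rise of their sum follows from that split and is no further result. Of all reads on the 9 genes, not corrected for length, Selplg and Pecam1 held 39.3% ± 1.14 and 31.3% ± 0.95 in saline mice and 30.7% ± 0.99 and 24.9% ± 0.62 in PD mice. The share of Selp went from 3.26% ± 0.11 to 7.78% ± 0.22 and that of Sele from 0.314% ± 0.019 to 1.89% ± 0.18, whereas Cd99l2 stayed at 0.503% ± 0.059 and 0.526% ± 0.048. Icam1 held 9.73% ± 0.36 and 14.9% ± 0.56 of these reads and Vcam1 7.20% ± 0.19 and 11.5% ± 0.71.

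Genes that work with the receptors were read in 7 lists that hold 100 genes. Cd99 had no row under that symbol and was not analysed here, and Icam5 had too few reads, which left 98. Of these, 66 were higher and 10 lower, with a median log2 fold change of 0.63, but with libraries scaled to the endothelial markers 16 were higher and 56 lower. The shares of all genes tested to set beside these and the following counts are 31.1% higher and 27.8% lower over all genes, and 7.36% higher and 74.4% lower on the endothelial scale. The counts of each list are given on both scalings for that reason. Calls are edgeR quasi-likelihood tests with Benjamini-Hochberg adjustment over all genes tested.

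On the leukocyte side, 7 of 11 integrins and other counter-receptors were higher and 2 lower (median 0.41), against 2 higher and 8 lower relative to the endothelial markers. Itgam, the αM chain of the β2 integrin that binds ICAM-1, was at 20.3, 14.1 and 21.3 CPM in saline mice and at 129, 120 and 112 CPM in PD mice, a log2 fold change of 2.69. Itga9 (1.85), which pairs with β1 and binds VCAM-1, was higher on both scalings. Itgax (0.89), another β2 integrin chain, was not called relative to the endothelial markers (-0.17). Cd44 (0.73), a ligand of E-selectin, turned from higher to lower on that scale (-0.33). Among the 2 lower over all genes was Itga4 (-0.44; named outside the rule for naming genes), the integrin chain that binds VCAM-1. Itgam is carried by macrophages and neutrophils, and 8 of 8 macrophage and 7 of 8 neutrophil markers tested were higher in PD mice, Adgre1 at a log2 fold change of 2.04 and S100a8 at 5.87. Their part in these values was not tested.

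Genes listed for selectin ligands and their glycosylation gave 8 higher and 2 lower of 14 (median 0.44), against 1 higher and 9 lower relative to the endothelial markers. Chst4, a sulfotransferase of lymph node venules, had the largest change, from 1.45, 0.415 and 1.41 CPM in saline mice to 5.70, 7.51 and 7.97 CPM in PD mice (log2 fold change 2.66, and 1.63 relative to the markers). Chst2, of the same family, changed by 1.48. The fucosyltransferases Fut4 (0.98) and Fut7 (0.98) were higher over all genes and at -0.08 and -0.07 relative to the markers.

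Other endothelial adhesion and transmigration proteins were the list with the most genes called higher, 20 of the 23 tested, with 2 lower and a median of 0.90. Relative to the endothelial markers 6 were higher and 8 lower. Cdh5, Esam and Emcn of this list are themselves among the 14 markers that set this scale, so their values there are partly fixed by it. Stab1, a scavenger receptor of sinusoidal and lymphatic endothelium and of macrophages, went from 9.68, 8.49 and 10.3 CPM to 60.8, 55.7 and 50.0 CPM (2.55). Glycam1, a mucin-type glycoprotein of lymph node venules, went from 1.33, 2.17 and 1.45 CPM to 9.46, 9.98 and 8.34 CPM (2.50). Both stayed higher on the endothelial scale, as did the junctional protein Nectin2 (1.60), whereas Aoc3 (1.57), the amine oxidase VAP-1, was there at 0.52 with an adjusted p of 0.228 in the edgeR quasi-likelihood test. The 2 lower genes, outside the rule for naming genes, were Icam4 (-1.19), at 1.11 to 1.74 CPM in saline mice, and Cd47 (-0.16).

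Of 18 genes for Weibel-Palade bodies, where P-selectin is stored, 11 were higher and 1 was lower (median 0.62), against 2 higher and 11 lower relative to the endothelial markers. The 2 that were higher on both scalings were Cd63 and Vwf. Cd63, the tetraspanin that accompanies P-selectin to the surface, went from 57.0, 62.3 and 55.6 CPM to 183, 196 and 217 CPM (1.77), and Vwf, the main stored protein, from 44.0, 28.7 and 46.6 CPM to 127, 114 and 91.9 CPM (1.48). The part of cells other than ECs in the Cd63 level was not tested. The Rab27a effector Myrip (1.44) was higher over all genes only. Ap1m1, of the adaptor for granule formation, was lower (-0.43; named outside the rule).

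Proteins that link the receptors to the cytoskeleton or relay their signals had the lowest median of the 7 lists, 0.20, with 4 of 12 higher and 2 lower, and with 1 higher and 10 lower relative to the endothelial markers, shares near those of all genes. The kinase Src went from 0.234, 0.553 and 0.497 CPM to 2.61, 2.18 and 1.36 CPM (2.27), so from few reads. Ctnnd1 (p120 catenin) was at 1.14, Rhog at 0.38 and Actn4 at 0.35, and the last 2 were lower relative to the markers. The 2 lower ones, named outside the rule, were Msn (-0.24), the moesin that anchors ICAM-1 and PSGL-1, and the phosphatase Ptpn6 (-0.26).

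Receptors and signalling proteins of cytokine induction were higher in 13 of 15 cases and lower in 1, with a median of 0.47, while relative to the endothelial markers 1 was higher and 8 were lower. The TNF receptor Tnfrsf1a, at 22.5, 18.8 and 24.5 CPM in saline mice and at 62.0, 63.4 and 51.8 CPM in PD mice (1.43), was the one that was higher on both. Il13ra1 (1.30), Osmr (1.22) and the other TNF receptor Tnfrsf1b (1.19) were next. Il1rap, the shared chain of the IL-1 receptors, was lower (-0.26; named outside the rule).

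Of the 5 proteases that cut adhesion receptors from the surface, Adam8, Adam9 and Adam15 were higher on both scalings, at 1.56, 1.53 and 1.50 over all genes. Adam9, for instance, went from 26.7, 26.3 and 25.7 CPM to 75.9, 76.7 and 74.6 CPM. The remaining 2, Adam10 (-0.09) and Adam17 (0.15; both named outside the rule), the latter a main sheddase of VCAM-1, did not pass the test over all genes and were lower relative to the endothelial markers.

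**Figure D5:**
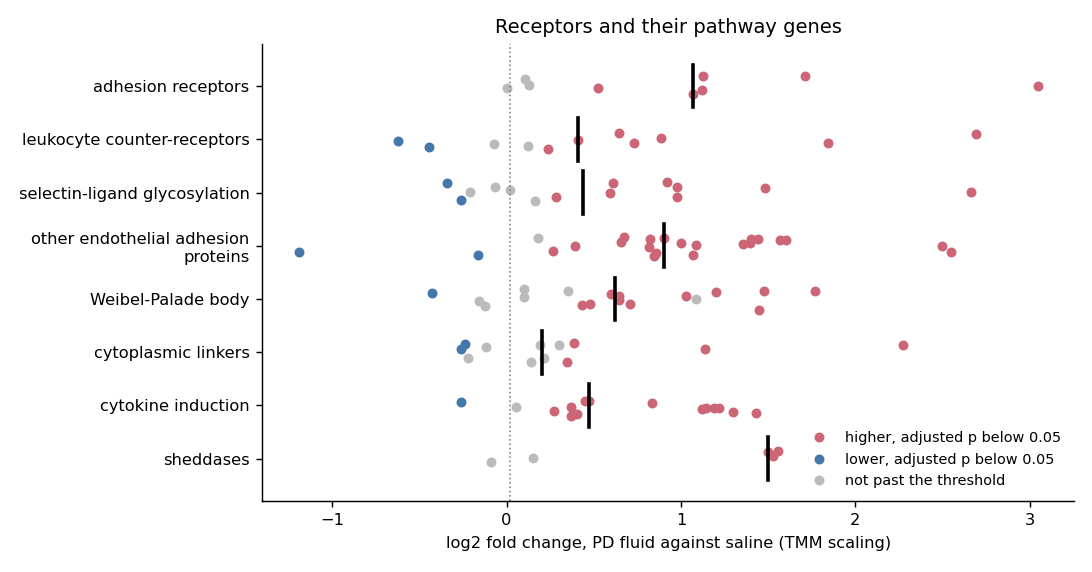
Log2 fold changes of PD against saline mice under TMM scaling for the 9 receptors and the tested genes of 7 pathway lists (points are genes, coloured by call at an adjusted p below 0.05; black bars are list medians and the dotted line is the median of all genes tested). The receptors have a median of 1.07, the other adhesion proteins of 0.90 and the cytoplasmic linkers of 0.20, against 0.02 over all genes.

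Cell types that could lend these transcripts to the libraries moved as well. Mesothelial markers (10 of 10 higher, 34.0 to 39.6 and 236 to 269 summed CPM), fibroblast markers (9 of 9, 99.9 to 107 and 876 to 914 CPM) and mural markers (7 of 8, 274 to 295 and 412 to 456 CPM) were higher in PD mice, and pancreatic acinar markers had 2.23 to 5.49 summed CPM in saline mice and 6342 to 7207 in PD mice. Mast cell markers were higher in 5 of 5 cases (232 to 238 and 339 to 386 CPM), large peritoneal macrophage markers in 7 of 8 (49.5 to 58.2 and 378 to 438 CPM) and neutrophil markers in 7 of 8 (31.6 to 38.7 and 410 to 446 CPM). T and NK cell markers were mixed, with 2 higher and 3 lower of 10, and of 7 erythroid markers 1 was higher and 2 were lower. The part of these cells in the levels of Icam1, Vcam1 or the other receptors was not tested.

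Genes with the profile nearest to the 3 receptors that changed most were found by the root mean square distance of log2(CPM + 1) values over the 6 libraries. Nearest to Sele were C1ra (distance 0.097), Apoa4 (0.105) and Loxl1 (0.114), whose log2 fold changes were 2.90, 6.33 and 3.75 beside 3.04 for Sele. Apoa4, with 0.084 CPM in the saline and 7.15 CPM in the PD group, and Loxl1, with 1.04 and 14.1 CPM, had few reads, and the added 1 CPM compresses such changes. Trf (0.022), Dab2 (0.036) and Lgals3 (0.040) were nearest to Selp, with log2 fold changes of 1.70, 1.72 and 1.68 beside 1.71. Nearest to Vcam1, at 1.13, were Cbr3 (0.025), Tmem86a (0.035) and Tnfaip3 (0.038), with 1.54, 1.21 and 1.15. Cbr3, at 1.73 and 5.01 CPM, is compressed in the same way, while Tnfaip3, a target and inhibitor of NF-κB, had 188 and 417 CPM. With 2 groups and 3 mice each, many genes that rise by the same amount have like profiles.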

How the data were processed

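Poly(A) RNA of the 6 libraries was prepared with an NEBNext Ultra kit and sequenced on a NovaSeq. The authors deposited whole-number read counts and FPKM values per gene in one table. The submitters' processing notes name fastp 0.18.0, Bowtie2 2.2.8, HISAT2, StringTie and RSEM, and which role each had, the build and the gene annotation are not given in the sources used here. Columns of the authors' own comparison (fold changes and p-values) were not used. Of 22183 gene IDs, 22128 matched GENCODE M21. Depth was 21973426 to 26374292 reads per mouse, and intervals reflect the spread between mice.

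Counts were filtered with filterByExpr, scaled by TMM and tested with the quasi-likelihood test of edgeR 4.0.16 (R 4.3.3), PD against saline mice, with Benjamini-Hochberg adjustment over 14005 genes and a threshold of 0.05. DESeq2 1.42.0 and limma 3.58.1 (voom) were alternatives, beside other scalings and filters and leaving out each mouse. Ratios to reference genes used log2(CPM + 1) and exact permutation tests. Named outside the 9 receptors were the reference genes, up to 4 called genes per list with the largest changes, genes not tested, the 3 nearest profiles and leading markers. Some genes that this rule covers are not reported here. The receptors and lists were chosen with earlier results of these data known. The labels give no batch, and each group's replicates differed by more than sampling noise.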

Additional observations from a re-analysis of the deposited data

How the results depend on the processing

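All member calls were kept under DESeq2, RLE scaling, limma-voom and no filter on low counts, with 6 receptors higher and 0 lower each time. Scaling to endothelial markers left 2 higher and 4 lower, with log2 fold changes of -0.95 for Selplg, -1.06 for Icam2, -0.93 for Pecam1 and -0.53 for Cd99l2, and gave 16 higher and 56 lower in the pathway lists. This setting takes the rise of the markers out by construction. A required 2-fold change left 30 and 1 of the list genes. Icam2, which passed no test over all genes, changed sign at -0.0086 with DESeq2 and -0.0087 with RLE scaling, and lay between -0.049 and 0.036 when mice were left out one at a time. Leaving out mice gave 6 to 7 receptors higher, 61 to 65 list genes higher and 7 to 10 lower, 3 to 5 receptors higher relative to Cdh5 and 0 to 1 lower relative to Pecam1. As shares of summed FPKM, Selplg took 49.0% in saline mice and 40.0% in PD mice and Pecam1 20.2% and 17.1%, since FPKM divides by length. A pseudocount of 0.1 CPM raised the Sele difference relative to Cdh5 to 2.19.

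Same-numbered mice of both groups did not deviate together (correlations of 0.188, 0.067 and -0.274), so the numbers do not pair them. With the replicate number as a block, 6 receptors were higher and 0 lower, and 65 list genes were higher and 8 lower. Low depth limits Cd99l2 and Sele most, at 151 and 99 reads in the thinnest library.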
